A study of Rattus norvegicus with 20 samples.

Results

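The genes described here are the 7 subunits of respiratory complex I that rats encode in mitochondrial DNA: Mt-nd1 (ENSRNOG00000030644), Mt-nd2 (ENSRNOG00000031033), Mt-nd3 (ENSRNOG00000033615), Mt-nd4 (ENSRNOG00000029707), Mt-nd4l (ENSRNOG00000031053), Mt-nd5 (ENSRNOG00000029971) and Mt-nd6 (ENSRNOG00000029042). They were chosen by Ensembl identifier from the 32883 genes of the deposited count table, and all 7 passed the filter on low counts. RNA was sequenced from gastrocnemius muscle, a mixed muscle of the calf, and from white adipose tissue of the abdomen of 10 rats. The animals were a cross of Fischer 344 and Brown Norway, labelled as 8 months old and kept for 2 weeks in a reversed light cycle before dissection. Each animal gave 1 library of each tissue. The design text speaks of both sexes, whereas every sample label says male, so no comparison by sex was made.

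Complex I, or NADH:ubiquinone oxidoreductase, is the entry point of the respiratory chain. It passes electrons from NADH to ubiquinone and pumps protons across the inner mitochondrial membrane. All its mitochondrially encoded subunits belong to the hydrophobic membrane arm, and the remaining subunits come from nuclear genes. Mitochondrial DNA is transcribed from both strands into long precursors that are cut mostly at transfer RNAs. Mt-nd6 is the only gene of this group on the light strand; the other 6 are heavy-strand genes. Mt-nd4l and Mt-nd4 are carried by a shared messenger RNA in mammals, and Mt-nd5 and Mt-nd6 are neighbours on opposite strands. Muscle fibres are rich in mitochondria, whereas a white fat cell is mostly filled by its lipid droplet.

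The muscle libraries held 8446548 to 20141701 counts and the adipose libraries 11067641 to 25904168. The lowest count of any of the 7 genes in any library was 7466, so the counting error (1 SD) was at most 1.16% of a value, and differences between animals were far larger. Sets of 170 genes nearly restricted to muscle and 154 nearly restricted to adipose tissue, defined on these same libraries, were used as a measure of the other tissue. The median muscle-restricted gene had 1.57% of its muscle level in adipose library 3, 1.41% in library 1 and 0.454% in library 5, and 0.0265% to 0.149% in the other 7 adipose libraries. The adipose-restricted genes stood at 0.533% of their adipose level in muscle library 2 and at 0.208% to 0.393% in the other 9 muscle libraries. The tissues were not checked against named markers, because the identifiers are not paired with symbols in the files used here. The nuclear subunits of complex I and the other mitochondrial genes were not analysed by name for the same reason.

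The first question was how much of each tissue's messenger RNA reads came from these genes. Together, the 7 genes took 5.26% ± 1.08 of the counts in muscle and 4.06% ± 1.89 in adipose tissue (n = 10 each, SD). The lowest, median and highest library had 4.17%, 4.99% and 6.92% in muscle, and 2.32%, 3.59% and 8.86% in adipose tissue. The groups overlapped, and muscle was higher in 8 of 10 animals. Animals 3 and 9 went the other way, with 5.43% in muscle and 8.86% in adipose tissue for animal 3, and 4.21% and 5.25% for animal 9. Adipose library 3 thus lay above every muscle library, also above the 6.92% of muscle library 8. Without adipose library 3 the adipose mean was 3.53% ± 0.900 (SD, n = 9), and muscle was 1.49 times as high. No test was made for this sum. In whole tissue, fewer cells of a type and less RNA per cell cannot be told apart.

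The same counts gave a larger contrast when libraries were scaled with trimmed-mean (TMM) factors. These factors set the libraries level on the bulk of genes, and were 0.559 to 0.747 for the muscle libraries and 1.21 to 1.98 for the adipose libraries. On this scale the 7 genes summed to 83183 ± 20025 counts per 1000000 (CPM) in muscle and 27412 ± 17503 CPM in adipose tissue (n = 10 each, SD), a ratio of 3.03. The lowest, median and highest library had 60796, 77444 and 108700 CPM in muscle, and 11940, 22929 and 73643 CPM in adipose tissue. Muscle was higher in 10 of 10 animals, including animal 3 with 86788 CPM in muscle and 73643 CPM in adipose tissue. Going from TMM factors to library totals shifted the log2 fold changes of all genes by a median of -1.30, so each gene below is given on both scales.

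**Figure D1:**
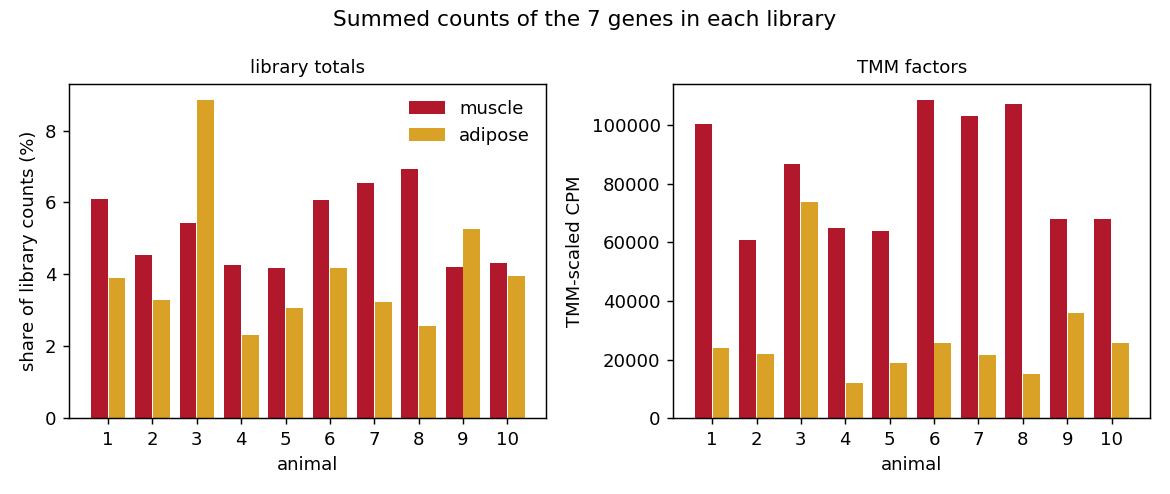
Summed counts of the 7 genes in each animal (x axis), muscle beside adipose tissue, as a share of library counts in percent (left) and as TMM-scaled CPM (right). By library totals adipose tissue exceeds muscle in animals 3 and 9, and with TMM factors muscle is higher in 10 of 10 animals.

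Muscle was then compared with adipose tissue gene by gene, in a fit across 13806 genes. With TMM factors, all 7 genes were higher in muscle (quasi-likelihood test of edgeR, threshold of 0.05 on the p adjusted by Benjamini-Hochberg), where 37.6% of all genes tested were called higher in muscle and 79.8% were called in either direction. Their median log2 fold change was 1.49, beside -0.09 over all genes tested. By library totals, 2 of the 7 genes were called higher in muscle, Mt-nd5 and Mt-nd6, beside 12.3% of all genes, and none was among the 74.2% of genes called higher in adipose tissue. Their median log2 fold change was then 0.26, beside -1.39 over all genes. No gene of the 7 had libraries without overlap between the tissues by library totals, as 6.06% of all genes had with muscle higher. The number called by library totals rested on animal 3. Without it, or without adipose libraries 1, 3 and 5, 6 of the 7 were called, all but Mt-nd1. Of all genes tested, 1635 of 13966 were called higher in muscle without animal 3. Without adipose libraries 1, 3 and 5 these were 1653 of 14145. Without animal 3 the edgeR adjusted p-values of the 4 added genes ran from 0.0137 for Mt-nd4l to 0.0499 for Mt-nd3, with log2 fold changes of 0.48 and 0.40.

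Mt-nd1 helps to form the site where ubiquinone is reduced. It took 0.832%, 1.01% and 1.39% of the counts in the lowest, median and highest muscle library, and 0.508%, 0.853% and 1.93% in the adipose libraries. The tissues overlapped, adipose library 3 exceeded all muscle libraries, and muscle was higher in 8 of 10 animals. The log2 fold change of Mt-nd1 by library totals was 0.19 (SE 0.22, edgeR adjusted p = 0.421), with a 95% interval of -0.27 to 0.66. With TMM factors it was 1.43 (SE 0.29, edgeR adjusted p = 0.000106). Mt-nd3, a small subunit with a loop near the quinone site, took 0.176%, 0.219% and 0.321% in muscle, and 0.0956%, 0.181% and 0.457% in adipose tissue (lowest, median and highest of 10). Muscle was higher in 7 of 10 animals, with a log2 fold change by library totals of 0.20 and a 95% interval of -0.28 to 0.67 (edgeR adjusted p = 0.424). With TMM factors Mt-nd3 reached 1.42 on that scale (SE 0.29, edgeR adjusted p = 0.000107).

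Mt-nd2, Mt-nd4 and Mt-nd5 are the antiporter-like subunits, which take part in proton pumping along the membrane arm. Mt-nd4 took the most reads of the 7 genes, although read shares of different genes also follow their lengths. Its share was 1.22%, 1.52% and 2.00% in the lowest, median and highest muscle library, and 0.776%, 1.16% and 2.84% in the adipose libraries. The groups overlapped and muscle was higher in 7 of 10 animals. By library totals its log2 fold change was 0.26, with a 95% interval of -0.21 to 0.72 (edgeR adjusted p = 0.284), and with TMM factors 1.49 (SE 0.29, edgeR adjusted p = 6.86e-05). Mt-nd2 took 0.838%, 1.07% and 1.51% in muscle, and 0.481%, 0.768% and 1.93% in adipose tissue. It was higher in muscle in 8 of 10 animals, with a log2 fold change of 0.35 by library totals and a 95% interval of -0.13 to 0.83 (edgeR adjusted p = 0.160). With TMM factors Mt-nd2 reached 1.58 on the log2 scale (SE 0.30, edgeR adjusted p = 4.56e-05).

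Mt-nd5, at the far end of the membrane arm, separated the tissues more clearly. Its share was 0.637%, 0.816% and 1.17% in the lowest, median and highest muscle library, and 0.259%, 0.424% and 1.07% in the adipose libraries. Of the 10 adipose libraries, 9 lay below every muscle library, and adipose library 3 was the exception. The mean share was 0.858% ± 0.195 in muscle and 0.473% ± 0.232 in adipose tissue (n = 10 each, SD). Its log2 fold change was 0.86 by library totals (SE 0.23, edgeR adjusted p = 0.00155) and 2.09 with TMM factors (SE 0.30, edgeR adjusted p = 1.14e-06). On the TMM scale it reached 9936 to 19465 CPM in muscle and 1433 to 8892 CPM in adipose tissue, so the groups did not overlap there. No overlap with muscle higher was found for 21.0% of all genes tested on that scale.

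Mt-nd4l and Mt-nd6 lie in the middle part of the membrane arm, between the quinone site and the antiporter-like subunits. Mt-nd4l had the smallest read share. It took 0.101%, 0.149% and 0.230% in the lowest, median and highest muscle library, and 0.0641%, 0.115% and 0.304% in the adipose libraries. Muscle was higher in 7 of 10 animals. Its log2 fold change was 0.24 by library totals, with a 95% interval of -0.22 to 0.70 (edgeR adjusted p = 0.304), and 1.47 with TMM factors (SE 0.27, edgeR adjusted p = 4.22e-05). Mt-nd6, the light-strand gene, took 0.225%, 0.276% and 0.426% in muscle, and 0.0735%, 0.156% and 0.329% in adipose tissue. Of the adipose libraries, 8 lay below every muscle library, with libraries 3 and 9 inside the muscle range. Its log2 fold change was 0.77 by library totals (SE 0.22, edgeR adjusted p = 0.00275) and 2.01 with TMM factors (SE 0.28, edgeR adjusted p = 8.98e-07). On the TMM scale Mt-nd6 had 3246 to 6937 CPM in muscle and 379 to 2737 CPM in adipose tissue, again without overlap. The 5 genes other than Mt-nd5 and Mt-nd6 overlapped on that scale through adipose library 3 alone, with the other 9 adipose libraries below every muscle library.

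**Figure D2:**
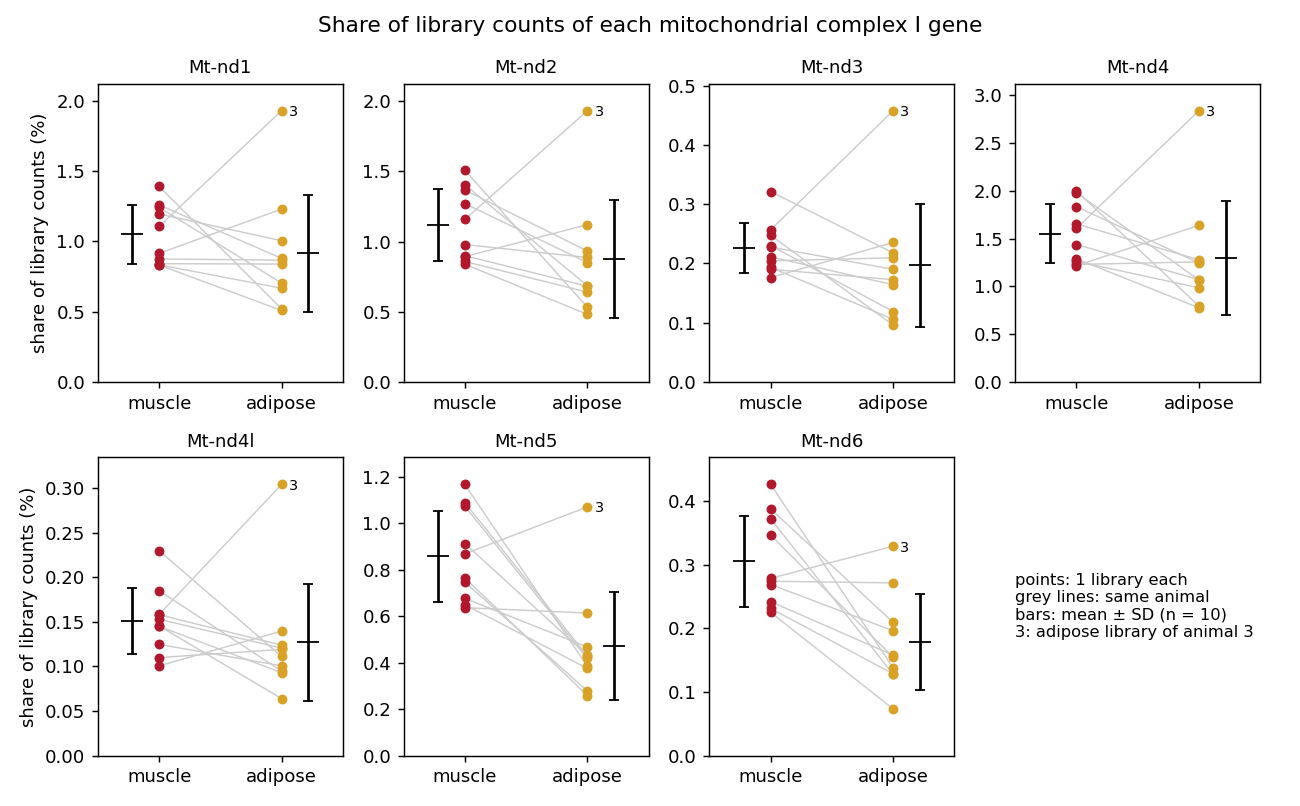
Share of library counts (percent, y axis from 0) of each gene in 10 muscle and 10 adipose libraries; points are libraries, grey lines join the tissues of an animal, and bars are the mean ± SD. Adipose library 3 is the highest adipose library in all 7 panels, and Mt-nd5 and Mt-nd6 are higher in muscle in 9 of 10 animals.

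**Figure D3:**
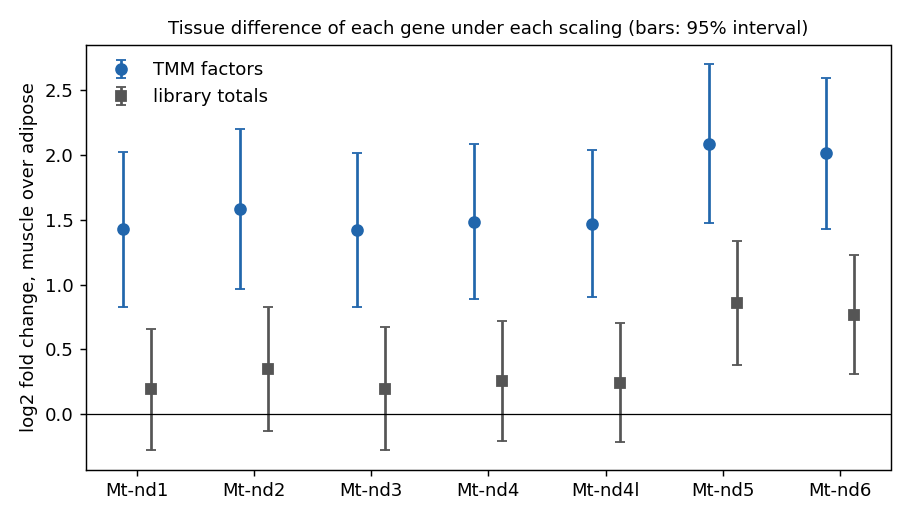
Log2 fold change, muscle over adipose tissue, of each gene (x axis) with its 95% interval, with TMM factors (circles) and by library totals (squares), from fits across 13806 genes. All 7 intervals lie above 0 with TMM factors, and those of Mt-nd5 and Mt-nd6 also do by library totals.

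The next comparison asked whether the 7 genes kept the same proportions in both tissues. Proportions within a library do not depend on its scaling. Mt-nd5 made up 16.3% ± 0.994 of the 7 genes' counts in muscle and 11.7% ± 1.83 in adipose tissue (n = 10 each, SD). The muscle libraries ran from 15.0% to 17.9%. The adipose libraries ran from 7.89% in library 2 to 15.0% in library 8, and 9 of 10 muscle libraries lay above all of them. Mt-nd6 made up 5.79% ± 0.491 in muscle and 4.44% ± 0.734 in adipose tissue (n = 10 each, SD). Against the sum of the other 6 genes, Mt-nd5 was 1.48 times as high in muscle as in adipose tissue, a mean log2 difference of 0.57 (SD 0.30 over 10 animals), and higher in 10 of 10 animals. Flipping the sign of each animal's difference in all combinations (an exact permutation test, two-sided) gave p = 0.00195, the smallest that 10 animals allow. This test was run for each of the 7 genes, after the data were seen for all but Mt-nd6, and its p-values are not adjusted.

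Mt-nd6 per 100 counts of the 6 heavy-strand genes was 6.15 ± 0.553 in muscle and 4.65 ± 0.802 in adipose tissue (n = 10 each, SD). The muscle libraries ran from 5.41 to 6.96, and the adipose libraries from 3.28 to 5.71. Muscle was higher in 10 of 10 animals, with a mean log2 difference of 0.42 (SD 0.18; p = 0.00195 in the same exact permutation test). Set against the median count of the heavy-strand genes rather than their sum, the difference was 0.26 and held in 9 of 10 animals (same exact test, p = 0.00781). That median lies midway between Mt-nd5 and the lower of Mt-nd1 and Mt-nd2. It therefore does not summarise all 6 genes, and Mt-nd5 was itself higher in muscle against the other genes. In an edgeR fit across all genes with libraries scaled to the 7 genes' sum, Mt-nd5 differed by 0.48 on the log2 scale (SE 0.22, adjusted p = 0.0444). Mt-nd6 had 0.38 (SE 0.21, adjusted p = 0.0802), which missed the threshold. In that fit 86.8% of all genes tested were called, and 6.69% of all genes tested were called higher in muscle. With the animal as a block, neither passed (adjusted p = 0.150 for Mt-nd5 and 0.195 for Mt-nd6), with log2 fold changes of 0.49 and 0.40.

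Of the remaining heavy-strand genes, Mt-nd4, Mt-nd1 and Mt-nd3 made up smaller parts of the 7 in muscle by the exact test over animals, and Mt-nd2 and Mt-nd4l were not past it. In the edgeR fit scaled to the 7 genes' sum, none of these 5 genes was called. Mt-nd4 had -0.11 (adjusted p = 0.632), Mt-nd1 -0.17 (adjusted p = 0.457) and Mt-nd3 -0.14 (adjusted p = 0.532) on the log2 scale. Their SE in that fit were 0.22, 0.22 and 0.21, larger than these differences, so the missing calls do not show equal proportions. Mt-nd4 made up 29.6% ± 1.25 of their counts in muscle and 32.0% ± 0.887 in adipose tissue, and was lower in muscle in 10 of 10 animals against the other 6 genes (log2 difference -0.17, SD 0.05, exact sign-flip permutation p = 0.00195). Mt-nd1 made up 20.0% ± 0.882 in muscle and 22.5% ± 1.48 in adipose tissue, and was also lower in 10 of 10 animals (log2 difference -0.22, SD 0.16, same exact test, p = 0.00195). Mt-nd3 made up 4.35% ± 0.598 in muscle and 4.78% ± 0.842 in adipose tissue, and was lower in 9 of 10 animals (log2 difference -0.14, SD 0.16, same exact test, p = 0.00586). Mt-nd2 stood at 21.2% ± 0.995 in muscle and 21.4% ± 0.634 in adipose tissue, a log2 difference against the other 6 of -0.02 (SD 0.06, same exact test, p = 0.277). Mt-nd4l stood at 2.87% ± 0.396 in muscle and 3.16% ± 0.575 in adipose tissue, and was not past the test (log2 difference -0.13, SD 0.33, p = 0.266, exact sign-flip permutation test). The result for Mt-nd4l rested on animal 2, and its log2 difference was -0.22 without that animal (same exact test over 9 animals, p = 0.00781). Proportions of a fixed total are linked, so larger parts of Mt-nd5 and Mt-nd6 lower the parts of the rest. The ratio of Mt-nd1 to Mt-nd2 does not depend on that total. Mt-nd1 had 94.5 ± 5.10 counts per 100 of Mt-nd2 in muscle and 105 ± 7.40 in adipose tissue (n = 10 each, SD). The groups overlapped, and the ratio was lower in muscle in 10 of 10 animals. This ratio was not tested.

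Ratios of single genes show the same contrast without a common total. Mt-nd5 had 55.2 ± 4.58 counts per 100 of Mt-nd4 in muscle and 36.6 ± 5.95 in adipose tissue (n = 10 each, SD). The muscle libraries ran from 49.7 to 65.8 and the adipose libraries from 24.2 to 48.4, with no overlap. Of the 21 pairs of genes, 2 had ratios without overlap between the tissues, Mt-nd5 with Mt-nd4 and Mt-nd5 with Mt-nd4l. The share of such ratios over pairs of all genes was not computed, so this number does not show whether they are unusual. Mt-nd4l, which shares its messenger with Mt-nd4, had 9.71 ± 1.10 counts per 100 of Mt-nd4 in muscle and 9.87 ± 1.73 in adipose tissue (n = 10 each, SD). That ratio was lower in muscle in 8 of 10 animals, and its lowest adipose value was 5.98, in library 2. Mt-nd6 had 35.7 ± 3.91 counts per 100 of its neighbour Mt-nd5 in muscle and 39.0 ± 10.3 in adipose tissue (n = 10 each, SD), and was higher in muscle in 6 of 10 animals. Whether the counting used the strand is not given in the sources used here, so reads of Mt-nd6 and of the opposite strand at its place may have been counted together. The library kit selects polyadenylated RNA, and in human cells the messenger of this gene is known to lack a long poly(A) tail, unlike those of the heavy-strand genes.

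**Figure D4:**
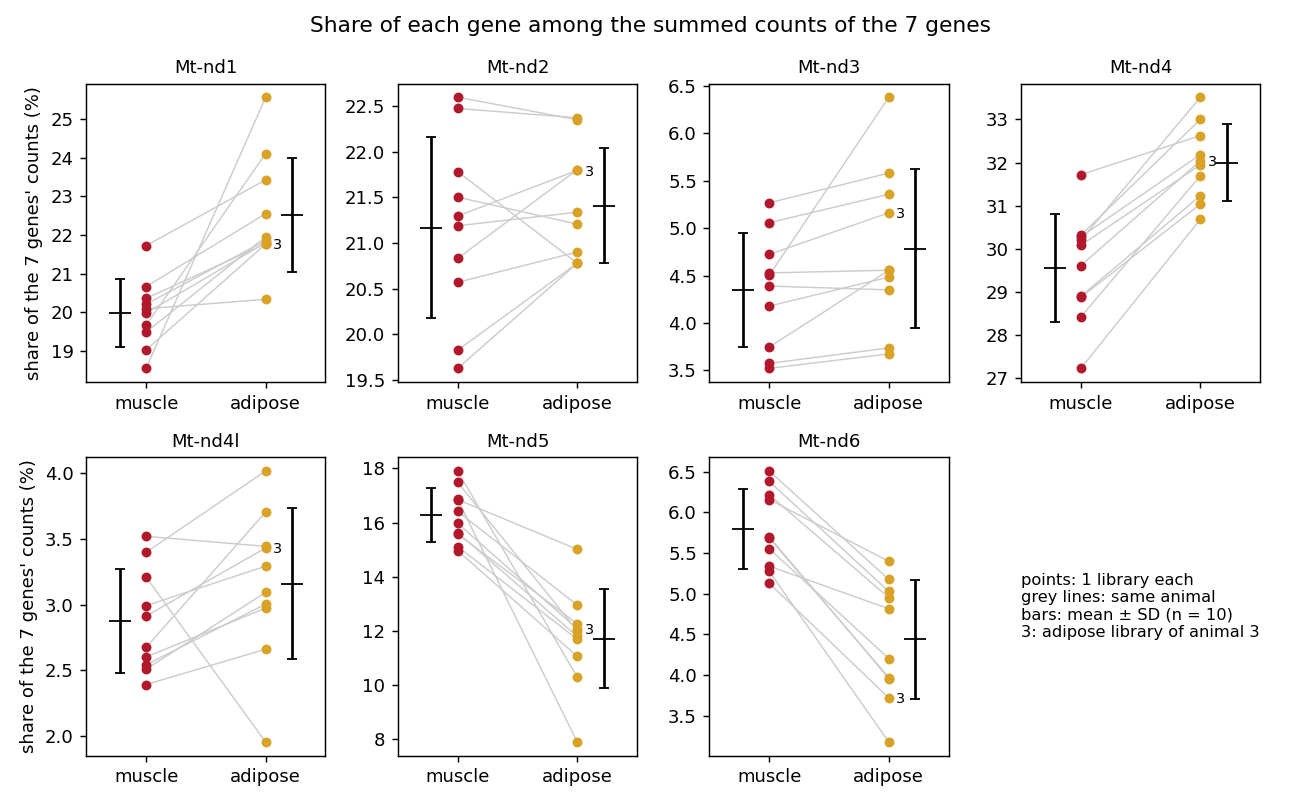
Percent of the 7 genes' summed counts taken by each gene in muscle and adipose libraries (y axes do not start at 0); points are libraries, grey lines join the tissues of an animal, and bars are the mean ± SD. Mt-nd5 and Mt-nd6 make up more of the sum in muscle in 10 of 10 animals, and Mt-nd1 and Mt-nd4 less in 10 of 10.

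The last comparison concerned how the genes varied between animals. In muscle the share of library counts of a single gene had a coefficient of variation of 18.7% for Mt-nd3 to 24.6% for Mt-nd4l. In adipose tissue the range was 42.3% for Mt-nd6 to 52.6% for Mt-nd3. Much of this spread came with adipose library 3, and without it the range was 20.6% for Mt-nd4l to 35.3% for Mt-nd6, with 30.4% for Mt-nd3. The proportions among the 7 genes had coefficients of variation of 4.23% for Mt-nd4 to 13.8% for Mt-nd4l in muscle, and 2.77% for Mt-nd4 to 18.2% for Mt-nd4l in adipose tissue. The SD of log2 CPM by library totals was 0.25 to 0.35 in muscle, at the percentiles 44.5 to 69.4 of 7764 genes with at least 5 CPM in both tissues. In adipose tissue the SD was 0.54 to 0.66, at the percentiles 79.9 to 87.7, and without adipose library 3 it was 0.33 to 0.54, at the percentiles 55.0 to 83.1. The difference in spread between the tissues was not tested.

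In the 5 relations computed between animals, on log2 shares of library counts, levels were compared for neighbouring genes and across the tissues. Both shares of a library have the same total as divisor, and p-values come from permutation tests with adjustment over the 5 relations. Pairs of genes that are not neighbours were not correlated within a tissue. Whether neighbours vary together more closely than other pairs of these genes was therefore not tested. Mt-nd5 and Mt-nd6 had r = 0.89 (adjusted p = 0.00342) and rho = 0.82 (adjusted p = 0.00928) over 10 muscle libraries. They had r = 0.82 (adjusted p = 0.00655) and rho = 0.73 (adjusted p = 0.0264) over 10 adipose libraries. Without the 2 libraries farthest from the median, r was 0.77 in muscle (adjusted p = 0.0429) and 0.94 in adipose tissue (adjusted p = 0.0109). The rank correlation of the remaining 8 libraries was no longer past the threshold in muscle (permutation test, rho = 0.64, adjusted p = 0.121), and was 0.86 in adipose tissue (permutation test, adjusted p = 0.0248). Mt-nd4 and Mt-nd4l had r = 0.89 (adjusted p = 0.000300) and rho = 0.94 (adjusted p = 0.00150) in muscle, with r = 0.81 and rho = 0.90 without the 2 farthest libraries. In adipose tissue they had r = 0.87 (adjusted p = 0.00655) and rho = 0.87 (adjusted p = 0.00585). Without adipose libraries 3 and 4, r was 0.60 and not past the threshold (permutation test, adjusted p = 0.154), whereas rho was 0.83 (permutation test, adjusted p = 0.0248). Across the tissues of an animal, the relation of Mt-nd1 was not past the threshold over 10 animals. It had r = 0.03 (adjusted p = 0.930) and rho = 0.24 (adjusted p = 0.513). Without animals 1 and 8, r was 0.39 (permutation test, adjusted p = 0.347) and rho 0.57 (permutation test, adjusted p = 0.151). So few animals do not settle whether the levels of the 2 tissues are related. The unadjusted p-values of the 5 relations for r, in the order given, were 0.00137, 0.00524, 6.0e-05, 0.00407 and 0.930.

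Among 7757 other genes with at least 5 CPM in both tissues, ENSRNOG00000031766 varied most like the summed heavy-strand genes. Its deviations from the tissue means of log2 CPM had r = 0.98 with theirs over 20 libraries, where both values of a library have its total as divisor. By library totals it had 16448 ± 3369 CPM in muscle and 14835 ± 7109 CPM in adipose tissue (n = 10 each, SD). The next, ENSRNOG00000030371, had r = 0.97, with 13620 ± 2343 CPM in muscle and 13048 ± 5818 CPM in adipose tissue (n = 10 each, SD).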

How the data were processed

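Per the submitters' processing notes, reads were processed on rn6 with STAR, featureCounts and bcl2fastq. Tool versions, gene annotation, strandedness of the counting and handling of multi-mapped reads were not given in the sources used here. Per the labels' protocols, 300 ng of RNA, from 10 mg (muscle) or 30 mg (adipose), entered an mRNA library kit. The authors deposited expected counts per gene and library, not normalized. Of the 140 values of the 7 genes, 2 were whole within 0.005. Over all genes, 25.3% of the values above 0 were whole, so values that are not whole are not particular to these genes. Whether reads shared with near-identical nuclear copies were split was not tested. Gene symbols are those given with the identifiers for this work. No sequence or length of these genes was used here.

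Counts were rounded and analysed in R 4.3.3 with edgeR 4.0.16 (filterByExpr, TMM factors, robust quasi-likelihood test, Benjamini-Hochberg adjustment over all genes tested), without the animal as a block. TMM-scaled CPM divide counts by the total of the filtered genes times the TMM factor, and shares divide them by the library total. Other scalings and filters, limma-voom (limma 3.58.1), DESeq2 1.42.0, the block and libraries left out were alternatives. The fit scaled to the 7 genes' sum, values without adipose library 3 alone and libraries left out under library totals were added after seeing the data. Restricted genes had a median of at least 20 CPM and 100 times that of the other tissue. The genes and lists were chosen with earlier results of these data known. All 7 genes are named, with the 2 genes most like the heavy-strand sum in deviations of log2 CPM (prior count 2). Nuclear gene lists and cell type markers fixed by symbol could not be run.

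Pairing by animal follows the titles and the design text. Deviations from the tissue means of same-animal libraries over 7764 genes had correlations of -0.21 to 0.41 (median 0.10), against a median of -0.01 between animals, so the pairing rests on the labels. The permutation tests rest on the spread between animals. The edgeR fits also draw on the spread of all genes tested, and those without the block take the libraries as unpaired. The fit was tested on simulated data for muscle over adipose with 13514 genes. It called 16.4% of genes changed by 0.5, 82.1% by 1 and 97% by 2 on the log2 scale, with 5 false calls among 134. In the measured libraries 11011 of 13806 genes were called with TMM factors. How the fit performs with that many called genes, or between profiles as unlike as those of the 2 tissues, was not tested. Neither was the choice between TMM factors and library totals.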

Additional observations from a re-analysis of the deposited data

Results flagged for a closer look

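In 32 groups of 10 libraries (the share of library counts and the proportion of each gene, their sum and the Mt-nd6 ratio, in each tissue), the extreme libraries were set against their neighbours. In 7 of these groups the gap divided by the range was above Dixon's 95% critical value for 10 libraries, and chance gives about 1 in 20 groups. All 7 are the same library, adipose library 3, and are not independent of each other. Its share of library counts for the 7 genes together was 8.86%, next to 5.25% for the nearest adipose library. For Mt-nd1 it was 1.93%, next to 1.23%, and for Mt-nd2 1.93%, next to 1.12%. For Mt-nd3 it was 0.457%, next to 0.235%, and for Mt-nd4 2.84%, next to 1.64%. For Mt-nd4l it was 0.304%, next to 0.140%, and for Mt-nd5 1.07%, next to 0.614%. The Mt-nd6 share of this library was the highest of its tissue at 0.329%, next to 0.272%, without passing the critical value. The proportions of the 7 genes in this library lay inside the range of the other adipose libraries. Muscle-restricted genes stood at 1.57% of their muscle level in this library, the highest of the 10, and its total of 11067641 counts was the lowest of its tissue. The part of either in the result was not tested. The share lay above that of each of the 10 muscle libraries.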

How the results depend on the processing

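With TMM factors, the 7 genes were called higher in muscle under each alternative run except library totals alone, where the number was 2. By library totals it was 6 without adipose libraries 1, 3 and 5 and ran from 2 to 6 with each animal left out (6 without animal 3). Over all genes, 1653 of 14145 were called higher in muscle without those adipose libraries. With each animal left out, 1622 to 1829 of all genes were called higher in muscle, of 13774 to 13966 tested. With the animal as a replicate block the median log2 fold change of the 7 genes was 1.64 (TMM) and 0.34 (library totals), and no call of theirs changed. Over all genes, 5187 were higher in muscle and 5824 in adipose tissue; with library totals these were 1692 and 10240 (14.2% of calls higher in muscle, beside 47.1%), and with totals without the 20 most abundant genes 2679 and 8737 (23.5%). The median shift of all genes from TMM was -0.81 in that case and -0.18 with upper-quartile factors. The muscle minus adipose difference of the 7 genes' sum was 1.20 percentage points, and 5.58 per 100 TMM-scaled counts. The log2 difference of Mt-nd6 per heavy-strand sum ran from 0.38 to 0.45 with each animal left out, and was 0.42 without the pairing (permutation p = 6.0e-05). Scaled to the 7 genes' sum in edgeR, Mt-nd6 had 0.38, 0.40 with the replicate block, 0.32 without adipose libraries 1, 3 and 5, and 0.40 without muscle library 2, none past the threshold (adjusted p = 0.0802, 0.195, 0.122 and 0.0624). Mt-nd1, Mt-nd3 and Mt-nd4, lower in muscle against the other 6 genes by the exact test, were not called in that fit either (adjusted p = 0.457, 0.532 and 0.632). The fit draws its spread from all genes, and the cause of the lost calls was not tested. For Mt-nd4 and Mt-nd4l in adipose tissue, r was 0.60 and rho 0.83 without the 2 farthest libraries. Depth limited none of the 7 genes at counts of 7466 or more.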
